A study of Arabidopsis thaliana with 12 samples.

Results

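The phenylpropanoid pathway of Arabidopsis thaliana was followed through 37 genes in seedlings grown on 3 related indazole chemicals or on their solvent. The genes were taken from a fixed list of loci covering phenylalanine ammonia-lyase to the flavonoid and lignin enzymes and the MYB and TT8 regulators; the rule that picks them uses no measured value, although the list was drawn up with earlier results of these data known. All 37 were found among the 29030 loci on the array, and 36 of them were among the 23553 genes tested. The remaining member, PAP2 (MYB90), an activator of anthocyanin genes, was not well above background on any of the 12 arrays and is given no level. The 37 genes fell into 6 branches, with 8 genes of the general pathway, 5 of the flavonoid backbone, 2 of anthocyanin synthesis, 7 of flavonoid decoration and transport, 7 regulators of flavonoid genes and 8 of monolignol synthesis.

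Transcripts were measured on single-colour Agilent arrays with Cy3-labelled cRNA from wild-type Col-0 seedlings, 3 arrays for each of 4 treatments. The medium held 2.5 µM 3-bromo-7-nitroindazole (3B7N), 2.5 µM 7-nitroindazole (7NIT), 2.5 µM 3-bromoindazole (3BRO) or the solvent dimethyl sulfoxide (DMSO). 3B7N carries both ring substituents, whereas 7NIT and 3BRO carry 1 of them each. Seeds stood for 3 days in the dark at 4 °C on this medium, and seedlings were then kept for 4 days in continuous blue light of 10 µmol m-2 s-1 and harvested whole. A cry1cry2 genotype named in the series design was not analysed here. Since no label states that replicate arrays stem from separate cultures, the p-values reflect only how far these arrays spread, and that spread may be technical. In RNA from whole seedlings, fewer cells of a type and less RNA per cell cannot be told apart.

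The pathway begins with phenylalanine, which phenylalanine ammonia-lyase (PAL), cinnamate 4-hydroxylase (C4H) and 4-coumarate:CoA ligase (4CL) turn into p-coumaroyl-CoA. Chalcone synthase (CHS) draws this intermediate into flavonols and anthocyanins, which screen ultraviolet and strong light, and hydroxycinnamoyl transferase (HCT) draws it into the alcohols that are polymerised to lignin. In Arabidopsis seedlings, blue light perceived by cryptochromes is known to raise transcripts of flavonoid genes, and MYB11, MYB12 and MYB111 are known activators of the flavonol genes, while PAP1 and TT8 act on the late anthocyanin genes.

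All levels below are log2 signals minus the 75th percentile of their array, so a value of 0 is the signal at that percentile, and levels are compared for the same probe only. Log2 differences come from limma, fitted to all 12 arrays at once, with Benjamini-Hochberg adjustment over 23553 genes and a threshold of 0.05. The 75th percentile of processed signal was 3318 to 3761 on 3B7N arrays, 2770 to 3472 on 7NIT arrays, 2366 to 2920 on 3BRO arrays and 1768 to 2205 on DMSO arrays. Of all probes, 77.1% to 84.6% were well above background on an array, and no spot was saturated. Slide 1 held the 3 DMSO arrays and 3BRO replicate 1, slide 2 held 3B7N replicates 1 and 2 with 3BRO replicates 2 and 3, and slide 3 held 3B7N replicate 3 with the 3 7NIT arrays. Slide 1 was scanned on one day and slides 2 and 3 on another. No slide held 3B7N or 7NIT beside DMSO, so a fit with slide as a block (slides blocked) reaches those comparisons through the 3BRO arrays. Its values for 3B7N minus DMSO and 7NIT minus DMSO rest on 1 3BRO array beside DMSO. Its values for 7NIT minus DMSO or minus 3BRO also rest on 3B7N replicate 3, the 1 array beside 7NIT on slide 3.

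Seedlings on 3B7N had lower transcript levels for much of the pathway than seedlings on DMSO. Of the 36 genes tested, 17 were lower, 1 was higher and 18 did not pass the test, while over all genes tested 10.2% were lower and 5.49% higher. The median log2 difference of the 36 genes was -0.81, beside -0.02 over all genes, and 32 of the 36 had a negative value. The lowest values belonged to F5H (-2.27), FLS1 (-1.97), CHS (-1.84), MYB11 (-1.66) and 4CL3 (-1.62), where MYB11 was not well above background on 1 3B7N array and lay at -0.25 with normexp background correction. The gene that was higher was CAD5 (0.71). Of the 18 calls, 12 held whichever array was left out. The calls of PAL3, UGT78D1, GSTF12, MYB11, HCT and CAD5 did not, and all 6 ended without DMSO replicate 1, with adjusted p of 0.051 to 0.14. Leaving out any array other than 7NIT replicate 3 ended at least 1 of these 6 calls. The median of the 36 genes was -0.60 with normexp, where 15 of the 18 calls held. It was -0.65 with quantile normalisation, where 16 held. With slides blocked, the median was -0.95, all 18 genes had the same sign, and 2 of them, CHS and F5H, stayed past the threshold, beside 3.26% of all genes. With scan days blocked 1 did, F5H, beside 2.59% of all genes. The 3B7N arrays lay wholly below the DMSO arrays for 23 of the 36 genes, beside 19.5% of all genes.

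**Figure D1:**
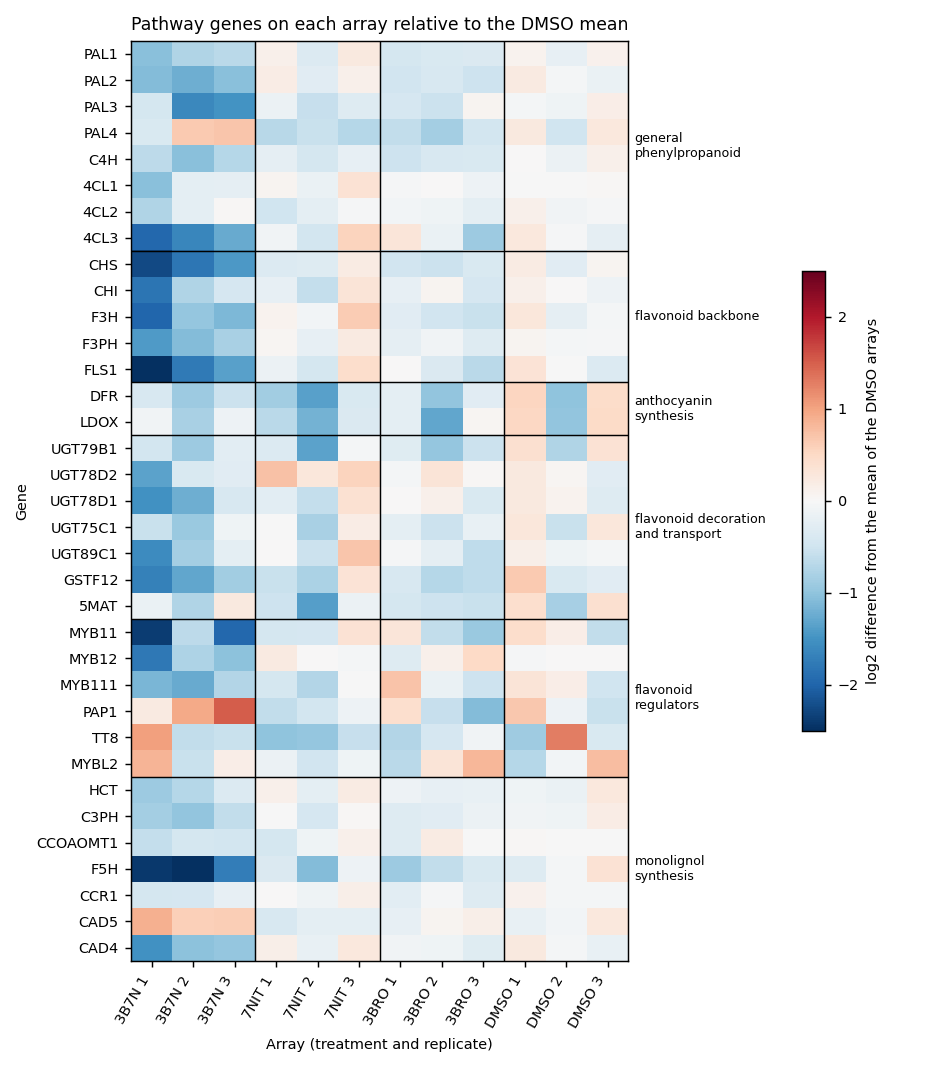
Each row is a gene, each column an array, and colour gives the log2 difference of that array from the mean of the 3 DMSO arrays, with blue for lower and red for higher. The 3B7N columns are mostly blue in the general, backbone and monolignol rows, with red cells for PAP1 and CAD5, and the DMSO columns differ among themselves most in DFR, LDOX and TT8.

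In the general pathway, 5 of 8 genes were lower in 3B7N than in DMSO seedlings and none was higher, with a branch median of -0.81. PAL2 (AT3G53260), one of the main ammonia-lyases, gave 2.73, 2.61 and 2.78 in 3B7N, 4.01, 3.55 and 3.96 in 7NIT, 3.34, 3.42 and 3.31 in 3BRO and 4.05, 3.77 and 3.65 in DMSO. The 3B7N arrays were the lowest and overlapped no other treatment, and the 3BRO arrays lay between them and the others. The log2 difference of PAL2 from DMSO was -1.12 ± 0.15 (SE, adjusted p = 0.0012), which is 0.461 of the DMSO level.

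PAL1 (AT2G37040), its close relative, gave 3.26, 3.54 and 3.62 in 3B7N, 4.41, 3.94 and 4.53 in 7NIT, 3.85, 3.90 and 3.94 in 3BRO and 4.38, 4.09 and 4.41 in DMSO. Again the 3B7N arrays lay below every other array, and the 3BRO arrays lay below every DMSO array. The difference of PAL1 was -0.82 (adjusted p = 0.0097), and a dimmer probe of the same gene gave -1.50. PAL3 gave -0.87, -2.04 and -1.91 in 3B7N, -0.57, -1.00 and -0.74 in 7NIT, -0.84, -0.95 and -0.35 in 3BRO and -0.48, -0.53 and -0.26 in DMSO. All 3 3B7N arrays were below DMSO, although replicate 1 overlapped the 7NIT and 3BRO arrays, and the difference was -1.18 (adjusted p = 0.018). PAL4 was the exception of the family, with -0.06, 0.98 and 1.01 in 3B7N, -0.37, -0.24 and -0.39 in 7NIT, -0.29, -0.53 and -0.13 in 3BRO and 0.56, -0.18 and 0.58 in DMSO. Its 3B7N arrays overlapped DMSO (0.32, adjusted p = 0.47) and lay above all 7NIT arrays. Probe sequences were not used here, so cross-hybridisation between members of the PAL, 4CL and CAD families was not checked.

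C4H (AT2G30490), which hydroxylates cinnamate, gave 3.39, 3.01 and 3.34 in 3B7N, 3.82, 3.60 and 3.85 in 7NIT, 3.54, 3.66 and 3.68 in 3BRO and 4.06, 3.91 and 4.18 in DMSO. No 3B7N array reached an array of another treatment, and the difference from DMSO was -0.80 ± 0.14 (SE, adjusted p = 0.0040). Among the ligases, 4CL3 (AT1G65060), the isoform associated with flavonoid synthesis, gave -2.36, -2.03 and -1.66 in 3B7N, -0.49, -0.85 and 0.15 in 7NIT, -0.09, -0.56 and -1.31 in 3BRO and -0.14, -0.42 and -0.62 in DMSO. 3B7N stood apart from the rest, with a difference of -1.62 (adjusted p = 0.0090), which was -0.95 with slides blocked (adjusted p = 0.36). The isoforms associated with lignin were not past the threshold, at -0.50 for 4CL1 (adjusted p = 0.14) and -0.32 for 4CL2 (adjusted p = 0.29). The 3B7N arrays of 4CL1 nevertheless lay below every array of the other treatments, and a dimmer probe of 4CL1 gave -0.75. Whether 4CL3 differed more than 4CL1 or 4CL2 was not tested.

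The flavonoid backbone had the lowest branch median in 3B7N against DMSO, -1.36, with 4 of 5 genes lower. CHS (AT5G13930), the entry enzyme, gave 0.98, 1.41 and 1.78 in 3B7N, 2.88, 2.91 and 3.42 in 7NIT, 2.75, 2.69 and 2.84 in 3BRO and 3.43, 2.95 and 3.30 in DMSO. On 3B7N arrays CHS was lower than on any other of the 12, and the 3BRO arrays lay just below those of DMSO. The CHS level in 3B7N was 0.280 of that in DMSO, a log2 difference of -1.84 ± 0.22 (SE, adjusted p = 0.00074), and -2.05 with slides blocked (adjusted p = 0.028). Blocking scan days in place of slides left an adjusted p of 0.051.

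FLS1 (AT5G08640), the main flavonol synthase, gave -0.59, 0.40 and 0.81 in 3B7N, 2.03, 1.74 and 2.61 in 7NIT, 2.18, 1.82 and 1.49 in 3BRO and 2.51, 2.17 and 1.84 in DMSO. Its 3B7N arrays spread widely (SD 0.72, n = 3) but stayed below every other array, at 0.255 of the DMSO level (-1.97, adjusted p = 0.0047). F3H (AT3G51240), the flavanone 3-hydroxylase, gave 0.0032, 1.03 and 0.88 in 3B7N, 2.07, 1.92 and 2.62 in 7NIT, 1.72, 1.51 and 1.44 in 3BRO and 2.27, 1.76 and 1.95 in DMSO. Again 3B7N lay below all others (-1.36, adjusted p = 0.0080), and a dimmer probe of F3H gave -1.39.

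F3′H (AT5G07990), the flavonoid 3′-hydroxylase that makes quercetin-type compounds, gave -2.64, -2.32 and -2.04 in 3B7N, -1.17, -1.43 and -1.00 in 7NIT, -1.45, -1.32 and -1.55 in 3BRO and -1.16, -1.27 and -1.25 in DMSO. The 3B7N arrays stood apart (-1.11, adjusted p = 0.0020), and the other probes of the gene gave -1.04 and -1.37. CHI (chalcone isomerase) was the backbone gene that did not pass, at -1.00 (adjusted p = 0.070), with 3B7N arrays at -1.49, -0.41 and -0.08 and DMSO arrays at 0.47, 0.34 and 0.20. The 2 groups did not overlap, but 3B7N replicate 1 lay far below replicates 2 and 3. That array was also the lowest of the 3 for CHS, F3H, F3′H and FLS1, and the median of the 5 backbone genes relative to the DMSO mean was -1.99 on it, against -1.09 and -1.12 on replicates 2 and 3.

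The genes of anthocyanin synthesis were dim and varied between arrays of 1 treatment. DFR (AT5G42800), the dihydroflavonol reductase, gave -4.86, -5.35 and -4.98 in 3B7N, -5.31, -5.80 and -4.82 in 7NIT, -4.70, -5.43 and -4.73 in 3BRO and -3.90, -5.44 and -3.99 in DMSO. DMSO replicate 2 lay among the treated arrays, so the groups overlapped, and the difference in 3B7N was -0.62 ± 0.40 (SE, adjusted p = 0.32). LDOX (anthocyanidin synthase) had the same array order within DMSO, with -5.18, -6.69 and -5.21, against -5.78, -6.51 and -5.82 in 3B7N (-0.35, adjusted p = 0.63). The median of the pair in 3B7N against DMSO was -0.48, and -0.98 to -0.22 when each array was left out in turn, the lowest without DMSO replicate 2. It was -0.18 with slides blocked, -0.10 with scan days blocked and -0.19 with normexp, and LDOX turned to 0.03 with scan days blocked. Whether the late anthocyanin genes differed less than the backbone genes was not tested.

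**Figure D2:**
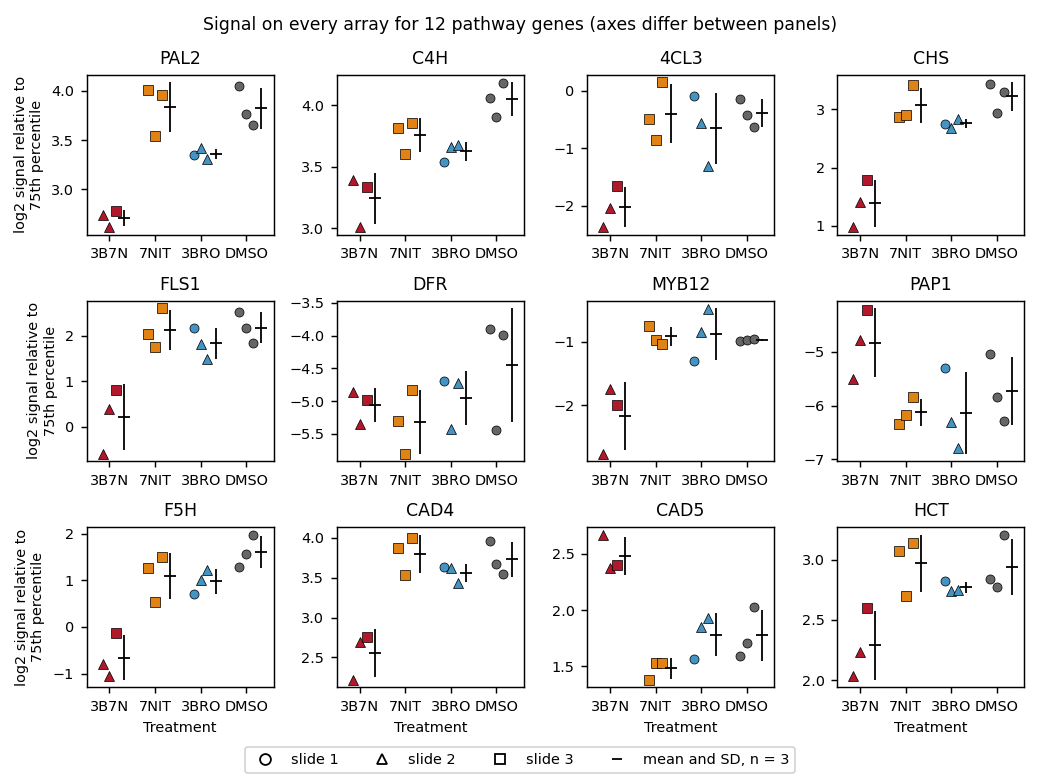
Each panel is a gene, the vertical axis its log2 signal relative to the array's 75th percentile, with 1 point per array, marker shape for the slide, and a bar for the mean and SD of 3 arrays. The 3B7N points lie below all others for PAL2, C4H, 4CL3, CHS, FLS1, MYB12, F5H, CAD4 and HCT, above all others for CAD5, and overlap those of DMSO for DFR and PAP1.

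Among the enzymes that decorate flavonoids, 2 of 7 were lower in 3B7N than in DMSO, with a median of -0.67. UGT78D1 (AT1G30530), a flavonol rhamnosyltransferase, gave -0.79, -0.50 and 0.32 in 3B7N, 0.47, 0.12 and 1.10 in 7NIT, 0.74, 0.84 and 0.35 in 3BRO and 0.96, 0.80 and 0.41 in DMSO. The 3B7N arrays were below all DMSO arrays by a narrow margin at replicate 3, and the difference of -1.04 was close to the threshold (adjusted p = 0.046). GSTF12 (TT19, AT5G17220), which carries anthocyanins towards the vacuole, gave -4.28, -3.89 and -3.46 in 3B7N, -3.13, -3.39 and -2.25 in 7NIT, -2.99, -3.30 and -3.23 in 3BRO and -1.94, -2.96 and -2.86 in DMSO. Its 3B7N arrays were the lowest (-1.29, adjusted p = 0.028), but the second probe of the gene, also above background, gave 0.04, so the 2 probes disagree.

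The other 5 were not past the threshold. UGT89C1, which acts on flavonol 7-hydroxyls, was at -0.88 (adjusted p = 0.12) and UGT78D2, a flavonoid 3-glucosyltransferase, at -0.67 (adjusted p = 0.12). The anthocyanin-specific enzymes UGT79B1, UGT75C1 and 5MAT lay at -0.55, -0.53 and -0.23, with adjusted p of 0.35, 0.27 and 0.72. In each of these 3, DMSO replicate 2 was below the other DMSO arrays, as it was for DFR and LDOX.

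The regulators divided. MYB12 (AT2G47460) gave -2.76, -1.74 and -2.00 in 3B7N, -0.75, -0.96 and -1.03 in 7NIT, -1.30, -0.85 and -0.48 in 3BRO and -0.99, -0.97 and -0.96 in DMSO. All 3B7N arrays were below all others, and the level was 0.438 of that in DMSO (-1.19 ± 0.26 SE, adjusted p = 0.012; -1.91 and adjusted p = 0.061 with slides blocked).

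MYB11 (AT3G62610) was dim, with -9.14, -7.41 and -8.74 in 3B7N, -7.21, -7.18 and -6.41 in 7NIT, -6.47, -7.37 and -7.70 in 3BRO and -6.32, -6.59 and -7.38 in DMSO. It was well above background on 2 of the 3 3B7N arrays, and 3B7N replicate 2 lay at the edge of the DMSO range. Its difference of -1.66 (adjusted p = 0.038) shrank to -0.25 with normexp background correction and to -0.44 with slides blocked, neither past the threshold. MYB111, the third flavonol activator, was at -1.04 (adjusted p = 0.055), but at -0.15 with slides blocked and 0.01 with scan days blocked.

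PAP1 (MYB75, AT1G56650) lay the other way. It gave -5.50, -4.77 and -4.22 in 3B7N, -6.35, -6.18 and -5.85 in 7NIT, -5.30, -6.30 and -6.80 in 3BRO and -5.04, -5.84 and -6.29 in DMSO. The 3B7N arrays were above every 7NIT array but overlapped DMSO, and the difference from DMSO was 0.89 ± 0.44 (SE, adjusted p = 0.19). It was 1.83 with slides blocked (adjusted p = 0.16) and 2.14 with scan days blocked (adjusted p = 0.13). TT8, the bHLH partner, was at -0.04 (adjusted p = 0.96) with single high arrays in 3B7N and in DMSO, and MYBL2, a repressor of anthocyanin genes, was at 0.15 (adjusted p = 0.85) and turned to -1.10 with slides blocked and with scan days blocked (adjusted p = 0.48 and 0.45).

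In monolignol synthesis, 4 of 8 genes were lower in 3B7N than in DMSO and 1 was higher, with a median of -0.58. F5H (FAH1, AT4G36220), the ferulate 5-hydroxylase needed for syringyl lignin and sinapate esters, gave -0.80, -1.05 and -0.12 in 3B7N, 1.26, 0.54 and 1.50 in 7NIT, 0.70, 1.01 and 1.23 in 3BRO and 1.29, 1.57 and 1.98 in DMSO. No treatment overlapped 3B7N, and the 3BRO arrays lay below all DMSO arrays. At 0.207 of the DMSO level (-2.27 ± 0.30 SE, adjusted p = 0.0011), F5H had the lowest value of the 36 genes, and it stayed past the threshold with slides blocked (-2.96, adjusted p = 0.022) and with scan days blocked (-2.69, adjusted p = 0.036).

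HCT (AT5G48930), which opens the branch, gave 2.03, 2.23 and 2.60 in 3B7N, 3.08, 2.70 and 3.14 in 7NIT, 2.82, 2.74 and 2.75 in 3BRO and 2.84, 2.77 and 3.21 in DMSO. The 3B7N arrays were the lowest (-0.65, adjusted p = 0.035), and its call was lost with quantile normalisation and with normexp. C3′H (CYP98A3, AT2G40890), the next hydroxylase, gave 1.68, 1.55 and 1.92 in 3B7N, 2.52, 2.11 and 2.56 in 7NIT, 2.20, 2.25 and 2.39 in 3BRO and 2.45, 2.43 and 2.72 in DMSO. Here too no 3B7N array reached another treatment (-0.81, adjusted p = 0.0072).

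The 2 cinnamyl alcohol dehydrogenases, which make the monolignols themselves, moved in opposite directions. CAD4 (AT3G19450) gave 2.22, 2.69 and 2.76 in 3B7N, 3.86, 3.54 and 4.00 in 7NIT, 3.63, 3.62 and 3.43 in 3BRO and 3.96, 3.67 and 3.55 in DMSO. CAD5 (AT4G34230) gave 2.67, 2.37 and 2.40 in 3B7N, 1.38, 1.53 and 1.53 in 7NIT, 1.56, 1.85 and 1.93 in 3BRO and 1.59, 1.71 and 2.03 in DMSO. The 3B7N arrays lay below all others for CAD4 (-1.17, adjusted p = 0.0024) and above all others for CAD5 (0.71, adjusted p = 0.013), and the 3 probes of CAD4 gave -1.08 to -1.29. With slides blocked CAD5 was at 0.42 (adjusted p = 0.44). Not past the threshold were CCoAOMT1, a methyltransferase, at -0.50 (adjusted p = 0.074) and CCR1, a reductase, at -0.36 (adjusted p = 0.090).

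**Figure D3:**
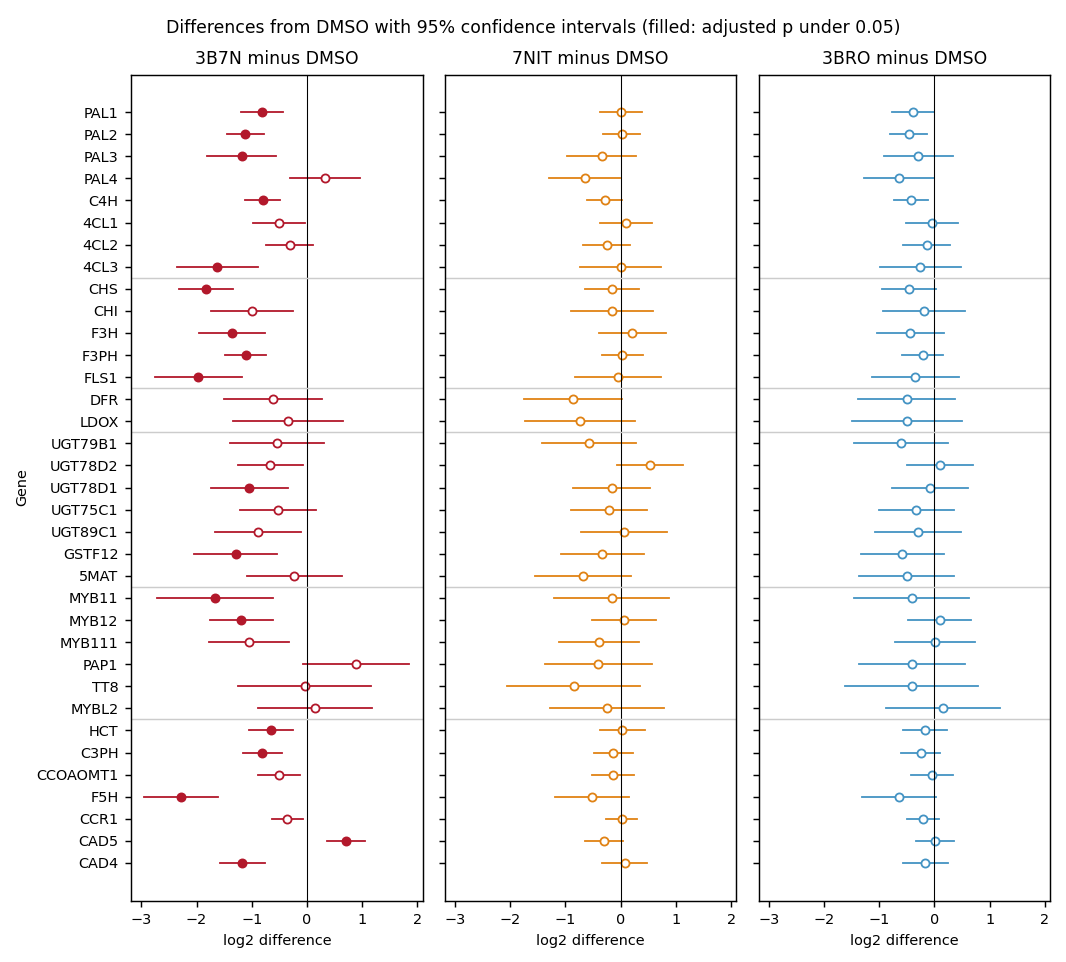
Log2 differences from DMSO (horizontal axis) with 95% confidence intervals for 35 genes in 3B7N, 7NIT and 3BRO, filled where the adjusted p is under 0.05. In 3B7N 18 genes are filled, 17 of them to the left of 0, and in 7NIT and 3BRO none is.

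At the same dose and time, neither chemical with 1 substituent gave a pathway gene past the threshold. In 7NIT against DMSO, limma called 0 of 36 genes, beside 0.0255% of all genes, and 1 of the 36 had an unadjusted p under 0.05, beside 7.89% of all genes. The median log2 difference was -0.16, beside 0.03 over all genes. CHS was at -0.16 with a 95% interval of -0.65 to 0.34, FLS1 at -0.05 (-0.83 to 0.74) and F5H at -0.52 (-1.19 to 0.15). 7NIT shares no slide with DMSO, and with slides blocked the median was -0.55, CHS was at -0.76 (-1.85 to 0.33), FLS1 at -0.43 (-2.11 to 1.24) and F5H at -1.74 (-3.15 to -0.32, adjusted p = 0.26), while 13 of the 36 genes took the opposite sign. With scan days blocked the median was -0.11. In 3BRO against DMSO 0 of 36 were called, beside 0.00425% of all genes, and 3 had an unadjusted p under 0.05, beside 3.77% of all genes. The median was -0.29, beside -0.02 over all genes, and 30 of the 36 values were negative. The 3BRO arrays lay wholly below the DMSO arrays for 9 of the 36 genes, beside 5.78% of all genes, namely PAL1, PAL2, C4H, CHS, F3H, F3′H, GSTF12, C3′H and F5H. CHS was at -0.47 (-0.96 to 0.02), F5H at -0.64 (-1.31 to 0.03) and MYB12 at 0.10 (-0.48 to 0.67). With slides blocked, which leaves 1 3BRO array beside DMSO, the median was -0.25 and 10 of the 36 genes took the opposite sign. These intervals do not show that the chemicals left the pathway at its DMSO level.

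Adding the nitro group to the bromo compound was read from 3B7N against 3BRO. Of 36 genes, 8 were lower and 1 higher, beside 4.79% and 2.72% of all genes, with a median of -0.52 beside -0.01. The lower genes were F5H (-1.64), FLS1 (-1.62), CHS (-1.37), 4CL3 (-1.37), MYB12 (-1.29), CAD4 (-1.00), F3′H (-0.90) and PAL2 (-0.65), and the higher was CAD5 (0.70). Without 3BRO replicate 2 the 9 calls became 4, with PAL2, 4CL3, FLS1, MYB12 and CAD5 at adjusted p of 0.053 to 0.099, whereas CHS, F3′H, F5H and CAD4 held whichever array was left out. Slide 2 held 2 arrays of each of these treatments, and within it 29 of 36 values were negative with a median of -0.70, CHS at -1.57, F5H at -2.04 and MYB12 at -1.58. None of the 36 passed the threshold in this fit of 4 arrays, beside 0.00425% of all genes. With slides blocked, the log2 differences were those within slide 2, and the other arrays bore on the spread alone. In that fit 7 were lower, beside 4.98% of all genes called, and F3′H, FLS1, CHS, MYB12, F5H and CAD4 were among them.

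Adding the bromo group to the nitro compound was read from 3B7N against 7NIT. Here 14 genes were lower and 2 higher, beside 12.5% and 6.06% of all genes, with a median of -0.68 beside -0.03. FLS1 (-1.92), F5H (-1.76), CHS (-1.68), 4CL3 (-1.62) and F3H (-1.57) had the lowest values, and UGT78D2, which was not past the threshold against DMSO, was at -1.20 (adjusted p = 0.013). The higher genes were CAD5 (1.00, adjusted p = 0.0022) and PAL4 (0.98, adjusted p = 0.040), and PAP1 was at 1.30 (adjusted p = 0.061). Without 7NIT replicate 1 the calls of PAL4, C4H, UGT78D2, HCT and C3′H ended, with adjusted p of 0.056 to 0.11, and the other 11 held whichever array was left out. Slide 3 held 1 3B7N array and the 3 7NIT arrays. Within it 24 of 36 values were negative, the median was -0.33, and 3 genes were called beside 6.57% of all genes, PAP1 (1.91) and PAL4 (1.34) higher and MYB12 (-1.08) lower. That 3B7N array is the one nearest to DMSO in the flavonoid enzymes (median -0.41 relative to the DMSO mean, against -1.46 and -0.92 on replicates 1 and 2). With slides blocked, the log2 differences were those within slide 3, so 3B7N was again 1 array. The other arrays bore on the spread alone. In that fit 6 genes were called, beside 8.29% of all genes. PAP1 and CAD5 were higher, CHS, PAL2, CAD4 and F3′H were lower, and FLS1 was at -1.31 (adjusted p = 0.11).

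**Figure D4:**
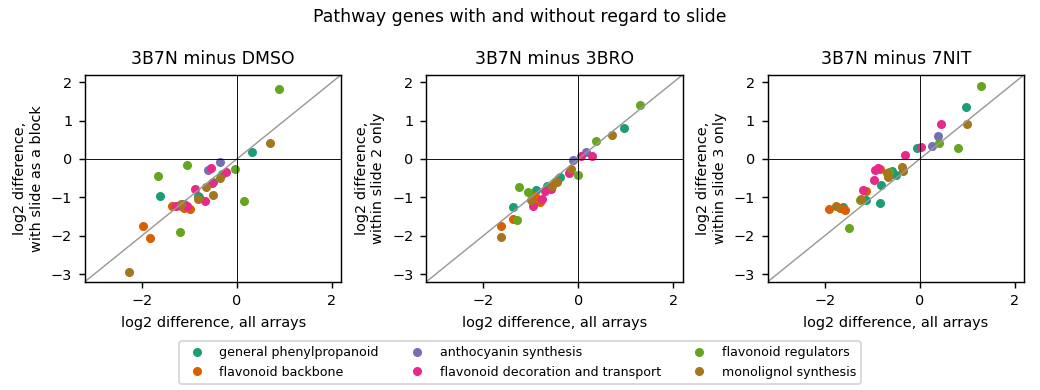
Each point is a gene, coloured by branch; the horizontal axis is the log2 difference over all arrays and the vertical axis the same difference with slides blocked (3B7N minus DMSO) or within the 1 slide that holds both treatments (the other panels). Most points lie near the diagonal and below 0, and PAP1 lies at the top of each panel, at 1.83, 1.41 and 1.91 on the vertical axis.

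The chemicals with 1 substituent were also set against each other. In 7NIT against 3BRO, 0 of 36 genes were called by limma, beside 0.0212% of all genes, and 3 had an unadjusted p under 0.05, beside 9.35% of all genes. CHS differed by 0.31 (95% interval -0.18 to 0.80) and F5H by 0.12 (-0.55 to 0.79). With slides blocked, a fit that here rests on 3B7N replicate 3, CHS was at -0.29 (-1.16 to 0.58) and F5H at -0.82 (-1.95 to 0.31). The median of the 36 genes was then -0.29 against 0.11 without a block, and 20 of the 36 took the opposite sign. The cause of these changes of sign was not tested, and the intervals of CHS and F5H span 0 in both fits. Treatments share arrays in these 6 pairwise comparisons, so their values are not independent of one another, and p-values were adjusted over genes within each comparison. Whether the effects of the substituents add up was tested as 3B7N minus 3BRO less 7NIT minus DMSO. None of the 36 genes passed the threshold in limma, beside 0.658% of all genes, and 13 had an unadjusted p under 0.05, beside 16.6% of all genes. The nearest were CAD5 (1.00, adjusted p = 0.069), CAD4 (-1.08, adjusted p = 0.085), PAL4 (1.62, adjusted p = 0.094), F3′H (-0.92, adjusted p = 0.097) and CHS (-1.21, adjusted p = 0.098). With quantile normalisation or normexp CAD5 was past the threshold, at an adjusted p of 0.045 and 0.043, beside 0.798% and 1.45% of all genes called.

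The 9 genes past the threshold in 3B7N against each of DMSO, 3BRO and 7NIT were PAL2, 4CL3, CHS, F3′H, FLS1, MYB12, F5H and CAD4, all lower, and CAD5, higher. These comparisons share the 3B7N arrays, so their calls are not independent. The share of all genes called in each of them together was not counted, so the 9 cannot be set beside it. The 4 genes called against DMSO and not against 7NIT were PAL3, UGT78D1, GSTF12 and MYB11, and their values against 7NIT were -0.84, -0.88, -0.96 and -1.50. With slides blocked UGT78D1 was at -0.24 against 7NIT.

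Around the 37 genes, 92 further loci of the pathway were read, of which 82 were tested. In 3B7N against DMSO 18 of these were lower and 3 higher, beside 10.2% and 5.49% of all genes. In 7NIT and 3BRO against DMSO limma called none of them, beside 0.0255% and 0.00425% of all genes. In each, 5 of 82 had an unadjusted p under 0.05 in limma (6.1%), beside 7.89% of all genes in 7NIT and 3.77% in 3BRO. In the supply of phenylalanine, 7 of 19 genes were lower and none higher, with a median of -0.39. The lowest were ADT4 (-1.39, adjusted p = 0.0033) and ADT5 (-0.81, adjusted p = 0.0091), arogenate dehydratases that make phenylalanine, and CM1 (-1.26, adjusted p = 0.0010), a chorismate mutase. The other chorismate mutases of the list, CM2 and CM3, were not among the lower genes. CM1 gave 0.72, 1.08 and 1.17 in 3B7N and 2.51, 2.20 and 2.06 in DMSO, without overlap.

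Of 7 further genes of the general pathway, 4CL5 was lower (-0.49, adjusted p = 0.030) and AT2G44130 was higher (1.29, adjusted p = 0.0027), a Kelch-repeat F-box gene of the group that targets PAL proteins for degradation. AT2G44130 gave 4.34, 4.17 and 4.91 in 3B7N and 3.07, 3.21 and 3.28 in DMSO, with every 3B7N array above the DMSO arrays. CHIL, a chalcone isomerase-like protein that aids CHS, was the lower one of 9 further flavonoid enzymes and transporters (-1.46, adjusted p = 0.0031). LBD39, a repressor of anthocyanin synthesis, was the lower one of 12 further regulators (-0.60, adjusted p = 0.016).

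In the branch to sinapate esters and coumarins, 3 of 13 genes were lower and 1 higher. The lower were UGT84A1 (-1.50, adjusted p = 0.027) and UGT84A2 (-0.90, adjusted p = 0.031), glucosyltransferases of hydroxycinnamates, and F6′H1 (AT3G13610, -1.08, adjusted p = 0.018), the hydroxylase that leads to scopoletin. SCPL19, an acyltransferase of sinapoylcholine synthesis, was higher (1.50, adjusted p = 0.043) at a dim signal, well above background on 2 of 3 DMSO arrays. Of 22 further lignin genes, 5 were lower and 1 higher. The lowest were the CCoAOMT-like AT4G26220 (-1.46, adjusted p = 0.018), the lignin regulator MYB20 (-1.12, adjusted p = 0.0063) and the alcohol dehydrogenase ELI3-1 (-1.08, adjusted p = 0.0022). PRX52, a peroxidase of the same list, was higher (1.33, adjusted p = 0.022), and was well above background on 1 of 3 DMSO arrays. With slides blocked, AT4G26220 (-2.94), F6′H1 (-1.99) and ELI3-1 (-1.48) stayed past the threshold among the genes named here.

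**Figure D5:**
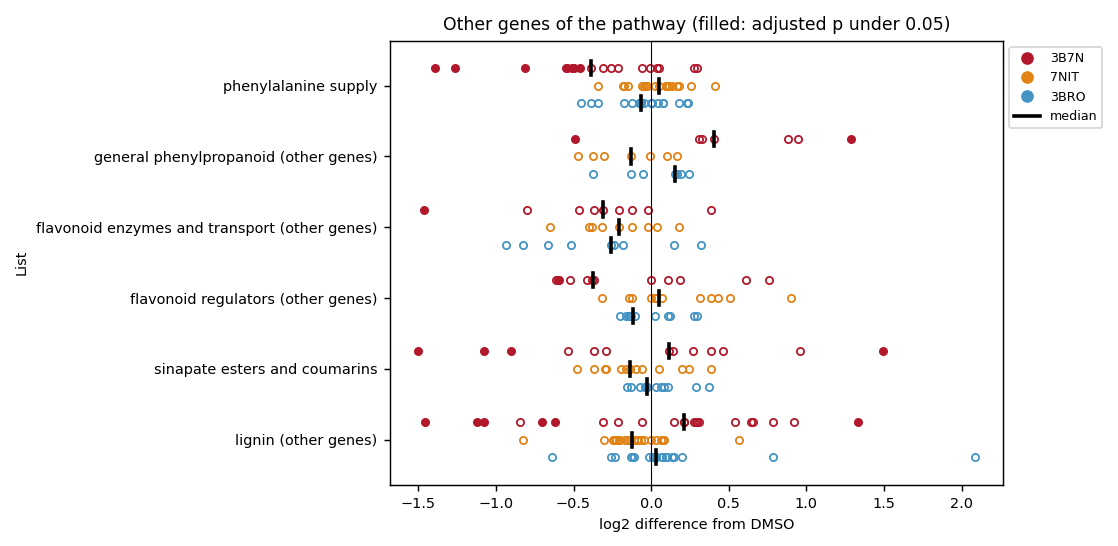
Each point is a gene of 6 further lists, the horizontal axis its log2 difference from DMSO, with filled points for an adjusted p under 0.05 and a black bar at the median. Filled points occur for 3B7N only, on the left for 7 genes of phenylalanine supply and on both sides of 0 for the lignin and sinapate lists.

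Markers of tissues were read beside these values. The 4 markers of lignified vessels, XCP1, XCP2, IRX3 and CESA4, were above background on all 12 arrays and lay at 0.03 to 0.27 in 3B7N against DMSO, none past the threshold, and their summed level was 1.02 to 1.50 in 3B7N, 0.58 to 0.84 in 7NIT, 0.45 to 1.45 in 3BRO and 0.96 to 1.40 in DMSO. The 4 markers of green tissue were lower in 3B7N, at -0.57 to -0.81, with a summed level of 8.80 to 9.06 in 3B7N, 9.06 to 9.34 in 7NIT, 9.22 to 9.37 in 3BRO and 9.03 to 9.90 in DMSO. Of 4 root markers 3 were lower in 3B7N, RHS19 at -1.99, PRP3 at -1.81 and PYK10 at -0.49, and EXPA7 was at -1.48 (adjusted p = 0.063 in limma). The summed level was 6.22 to 6.43 in 3B7N, 6.44 to 6.60 in 7NIT, 6.62 to 6.84 in 3BRO and 6.74 to 7.04 in DMSO. That sum mostly reflects PYK10, the brightest of the 4, with a mean of 6.35 in 3B7N. The part of green and root tissue in the pathway's lower values was not tested. None of the 4 seed storage and oil body markers was past the threshold, and their summed level ranged from -0.37 to 0.82 in 3B7N, -2.91 to 0.71 in 7NIT, -1.66 to 0.05 in 3BRO and -0.43 to 1.92 in DMSO. BAN, which marks the seed coat, was well above background on 1 of the 12 arrays, a DMSO array.

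In the authors' deposited table for 3B7N against DMSO, which lists 1779 probes, 17 probes of 12 members occur. The array holds 43603 non-control probes. The lowest absolute fold among the 17 was 2.05, and the list was not set against the calls made here. By that table's absolute folds F5H was at 4.82, FLS1 at 3.89, CHS at 3.56 and 4CL3 at 3.08. In the authors' deposited table for 7NIT against DMSO, which lists 14 probes, no member occurs.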

How the data were processed

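Per the file headers, the authors scanned 12 single-colour arrays and extracted them with Agilent Feature Extraction. The submitters' processing notes give version 10.7.3.1. The deposited values are intensities (processed signal, background-corrected). The deposited comparison tables give the authors' absolute fold and corrected p-value per probe; how those p-values were computed is not stated in those tables. Here, log2 of the processed signal minus each array's 75th percentile was taken. Probes were kept that were well above background on every array of at least 1 treatment, and the brightest passing probe stood for a locus (35755 of 43603 probes, 23553 genes). limma 3.58.1 in R 4.3.3 was fitted to all 12 arrays; the fit was tested on simulated data. Array-to-array r was 0.979 to 0.993 within treatments and 0.957 to 0.993 between treatments. The number of arrays limits precision. 1 3BRO file holds signals rounded to 3 digits.

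Alternatives were quantile normalisation, normexp (offset 50) on median signals (the mean signal is not in the files, so this form was chosen after seeing the data), other filters, the mean of probes, blocks for slide, scan day and replicate number, and leaving out each array. Fits within a slide were also added after seeing the data. Named genes are any of the 37 members, with values on each array for up to 4 genes past the threshold with the largest change in 3B7N in each branch and for the opening genes; PAL4, CHI, DFR, LDOX, CM1 and AT2G44130 were given array values after theirs were seen. Of other pathway genes up to 3 highest and 3 lowest past the threshold are named per list, with CM2 and CM3 named beside CM1. Members and lists were chosen with earlier results of these data known. Names follow RefSeq's table for TAIR10.1, in which all 37 members and 92 further loci matched. The values of 1 monolignol member, which stays in the counts and medians, are not reported here. No coordinates or sequences are printed.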

Additional observations from a re-analysis of the deposited data

How the results depend on the processing

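Blocks for slide and scan day ended the most calls in 3B7N against DMSO, 2 treatments that share no slide. With slide as a block 2 genes were past the threshold and with scan day as a block 1, against 18 without a block, while all 18 kept their sign. Why the calls were lost was not tested. The block fits estimate more coefficients from the same 12 arrays. In 3B7N against 7NIT, 6 genes passed with slide as a block, against 16. In the test of additivity, 1 gene passed with normexp and 1 with quantile normalisation, against 0; the cause was not tested. Leaving out each array in turn gave 12 to 18 genes for 3B7N against DMSO (12 without DMSO replicate 1), 4 to 10 for 3B7N against 3BRO (4 without 3BRO replicate 2), 11 to 18 for 3B7N against 7NIT, and 0 to 1 for additivity. 12 of the 18 genes passed in each of the 12 such fits: PAL1, PAL2, C4H, 4CL3, CHS, F3H, F3′H, FLS1, MYB12, C3′H, F5H and CAD4. In 7NIT and 3BRO against DMSO no setting brought a member past the threshold.

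Whether replicate numbers pair the arrays was not settled. Deviations from the group means had a median r of 0.14 (-0.16 to 0.44) between same-numbered arrays of different treatments. Between arrays of other numbers the median was -0.06 (-0.38 to 0.33). With the replicate block, 18 genes passed in 3B7N against DMSO, 9 in 3B7N against 3BRO and 17 in 3B7N against 7NIT. Against DMSO 16 of the 18 earlier calls were kept, MYB11 and UGT78D1 were lost, and CCoAOMT1 and UGT75C1 were gained. Against 3BRO 8 of 9 were kept, with 4CL3 lost and C3′H gained. Against 7NIT all 16 were kept and PAL3 was gained.

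Branch medians moved as follows. For the general pathway in 3B7N against DMSO the median was -0.62 with normexp, -0.65 with quantile normalisation, -0.96 with the mean of probes and -0.96 with the slide block; in 7NIT it was -0.27 with the mean of probes, -0.29 with the slide block and -0.31 to -0.028 leaving out arrays. With the slide block in 7NIT, the backbone was at -0.43, decoration at -0.69 and monolignol synthesis at -0.53 (-0.36 with scan day). Monolignol synthesis in 3B7N was at -0.43 with quantile normalisation, -0.89 with slide and -0.82 with scan day. The anthocyanin pair ran from -0.98 to -0.22 in 3B7N, -1.30 to -0.54 in 7NIT and -1.00 to -0.19 in 3BRO leaving out arrays, and was at -0.10, -0.42 and -0.25 in them with scan day. In 7NIT the backbone, at -0.048, turned positive with normexp (0.066), with scan day (0.013) and leaving out arrays (up to 0.14), and leaving out arrays also turned decoration (up to 0.058) and monolignol synthesis (up to 0.0065). The regulators moved too: in 3B7N -0.092 with normexp, -0.045 with only probes above background on all arrays, -0.35 with slide and -0.74 to -0.35 leaving out arrays; in 7NIT 0.047 with scan day, a change of sign, and -0.55 to -0.14 leaving out arrays; in 3BRO -0.0063 with normexp, 0.011 with the strict filter, a change of sign, and -0.42 to 0.094 leaving out arrays, positive without DMSO replicate 2. The cause was not tested. With slides blocked in 3B7N against DMSO, the widest intervals were those of TT8 (SE 1.07), LDOX (0.91), MYB11 (0.85), DFR (0.81) and MYBL2 (0.81). The first 4 of these were dim, but MYBL2 was not, with a mean level of 1.49 in DMSO.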
